A study of Mus musculus with 13 samples.

Results

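Promoter peaks are the stretches of open chromatin that lie at the annotated start sites of genes. They were taken here as the autosomal peaks of an ATAC-seq study of mouse microglia whose deposited annotation placed them within 1 kb of a transcription start site. They numbered 13671 of 38620 peaks (35.4%) and belonged to 10596 genes. A further 390 promoter peaks on the X and Y chromosomes were left out.

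The microglia came from male C57BL/6J mice that were injected intraperitoneally at 10 weeks of age, received BLZ945 or its vehicle by gavage from a week later, and were injected again 5 weeks after the first injection. Injections held PBS or 1 mg/kg lipopolysaccharide (LPS) from Escherichia coli O111:B4. BLZ945 blocks the CSF1 receptor that microglia need to survive, so that 5 days at 169 mg/kg per day deplete them and the brain is refilled by new ones afterwards. All cells were taken 3 h after the last injection, at 15 weeks, and sorted as DAPI-negative, CD11b-high, CD45-intermediate and Ly6c-negative. The control groups were PP (PBS, vehicle, PBS) and PBP (PBS, BLZ945, PBS). PL (PBS, vehicle, LPS) and PBL (PBS, BLZ945, LPS) met LPS for the first time before collection. LL (LPS, vehicle, LPS) and LBL (LPS, BLZ945, LPS) met it a second time. PBL had 3 libraries and the other groups had 2, and each library pooled 40000 cells from each of 2 mice, so the replicate is a pool of animals. The names of PBL 3_4 and PBL 4_5 share an animal number, and no source used here says if a mouse is in both. The Astrios sorter was used for PP, PBP and PL, the XDP sorter for PBL, LL and LBL. Each group was isolated on 1 day, apart from PL, of which 1_2 was isolated together with PBP and 3_4 together with PP.

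In ATAC-seq a transposase cuts and tags DNA that is free of nucleosomes, and the count in a peak measures how often that happened. Many mammalian promoters are rich in CpG and are open in most cells whether or not the gene is strongly transcribed, while promoters poor in CpG tend to open with the cell type or the stimulus. A gene often has an outer promoter at its 5′ end and inner promoters that start shorter transcripts. LPS acts on microglia through Toll-like receptor 4, which turns on NF-kB, AP-1 and, through interferon, ISGF3, and these factors bind promoters and distal enhancers.

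The 250 bases before the start site of 8 promoters are shown because these promoters carry the main patterns. Rcan1, Birc3 and Cd244a were more open after the first LPS injection, and Mertk and Cx3cr1 were less open in at least 1 LPS comparison. 4931408C20Rik was high in PP alone, above PBP without LPS as well as the LPS groups. Jmjd1c has an inner CpG-rich promoter that was more open after the first LPS injection. Crybb1 has a CpG-poor one that was lower in PBL than in PBP and higher in LBL than in PBL. The sequences are from RefSeq (GRCm38.p6), 5′ to 3′ on the strand of the gene. Capitals mark matches, on either strand, to NF-kB (GGANTTTCC), the interferon response element (GAAANNGAA), AP-1 (TGANTCA), CRE (TGACGTCA), PU.1 (GAGGAAGT) or the glucocorticoid receptor (ACANNNTGT).
Rcan1 (chr16:92400079-92400328, minus strand): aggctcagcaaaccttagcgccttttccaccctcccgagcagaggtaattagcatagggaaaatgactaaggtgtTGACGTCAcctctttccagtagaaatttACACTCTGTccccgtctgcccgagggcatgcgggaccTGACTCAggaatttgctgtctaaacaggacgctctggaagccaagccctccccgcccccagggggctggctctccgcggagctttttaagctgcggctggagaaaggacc
Birc3 (chr9:7873171-7873420, minus strand): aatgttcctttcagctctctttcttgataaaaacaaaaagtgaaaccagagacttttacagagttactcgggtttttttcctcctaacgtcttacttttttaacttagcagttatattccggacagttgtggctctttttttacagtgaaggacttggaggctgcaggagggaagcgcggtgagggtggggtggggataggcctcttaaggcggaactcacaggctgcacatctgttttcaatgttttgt
Cd244a (chr1:171558943-171559192, plus strand): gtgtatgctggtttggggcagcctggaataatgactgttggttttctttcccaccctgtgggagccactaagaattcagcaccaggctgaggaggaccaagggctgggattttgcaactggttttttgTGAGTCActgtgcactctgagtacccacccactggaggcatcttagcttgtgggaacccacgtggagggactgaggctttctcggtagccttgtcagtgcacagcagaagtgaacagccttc
4931408C20Rik (chr1:26687461-26687710, minus strand): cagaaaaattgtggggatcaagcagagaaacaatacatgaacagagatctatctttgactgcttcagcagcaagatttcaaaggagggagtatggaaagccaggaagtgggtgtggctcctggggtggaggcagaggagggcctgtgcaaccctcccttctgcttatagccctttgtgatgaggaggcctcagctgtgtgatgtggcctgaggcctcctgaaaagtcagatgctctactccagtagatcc
Mertk (chr2:128698665-128698914, plus strand): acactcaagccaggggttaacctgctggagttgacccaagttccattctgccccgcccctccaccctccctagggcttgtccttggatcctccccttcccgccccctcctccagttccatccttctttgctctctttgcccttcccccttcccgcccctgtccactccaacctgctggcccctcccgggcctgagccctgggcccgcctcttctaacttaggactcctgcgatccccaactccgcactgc
Cx3cr1 (chr9:120068297-120068546, minus strand): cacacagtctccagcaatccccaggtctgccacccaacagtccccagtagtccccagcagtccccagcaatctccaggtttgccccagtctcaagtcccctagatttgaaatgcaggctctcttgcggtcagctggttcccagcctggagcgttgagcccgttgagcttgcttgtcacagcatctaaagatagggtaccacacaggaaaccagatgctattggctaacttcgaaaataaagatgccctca
Jmjd1c, inner start (chr10:67126838-67127087, plus strand): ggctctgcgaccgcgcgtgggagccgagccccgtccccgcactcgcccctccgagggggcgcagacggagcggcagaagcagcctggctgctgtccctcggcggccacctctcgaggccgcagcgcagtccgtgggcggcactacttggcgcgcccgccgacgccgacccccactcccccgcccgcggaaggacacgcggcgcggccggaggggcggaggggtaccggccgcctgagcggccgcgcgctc
Crybb1 (chr5:112255570-112255819, plus strand): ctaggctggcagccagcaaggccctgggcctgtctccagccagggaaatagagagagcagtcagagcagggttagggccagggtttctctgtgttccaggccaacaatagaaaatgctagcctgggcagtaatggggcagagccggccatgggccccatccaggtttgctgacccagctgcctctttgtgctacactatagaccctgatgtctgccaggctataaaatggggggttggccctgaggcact

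The Rcan1 promoter held a CRE, a glucocorticoid receptor match and an AP-1 match, and Cd244a held an AP-1 match. The other 6 windows held none of these motifs. Of 32817 distinct RefSeq windows of 250 bases before to 50 after a start, 7.81% held the AP-1 letters, 1.79% the CRE, 6.85% the glucocorticoid, 1.26% the NF-kB, 8.55% the interferon response and 3.2% the PU.1 letters. Over the whole window, Jmjd1c had 47 CpG and a GC content of 78%, Crybb1 had 2 CpG, Cd244a 2 and 4931408C20Rik 0. Only 7523 of the 13433 tested promoter peaks (56.0%) overlapped a RefSeq window of their gene by at least 150 bases, so no count of motifs or CpG over all promoter peaks was made.

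Promoter peaks were wider and more open than distal ones. Their median width was 655 bp, against 359 bp for intronic and 376 bp for distal intergenic peaks, and their median level per kb was 51.95, 35.26 and 34.28 CPM (counts scaled to a common total of counts in peaks) in the same order. They took 56.1% of all counts on 47.5% of the peak bases. Of the 13671, 10754 (78.66%) overlapped an annotated start, 10190 lay at an outer start and 3294 at an inner one, and 4609 (33.71%) had start sites of 2 or more genes within 1 kb, where a value cannot be given to 1 gene. There were 2375 genes with 2 or more promoter peaks and at most 7. After the filter on low counts 13433 were tested.

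**Figure D1:**
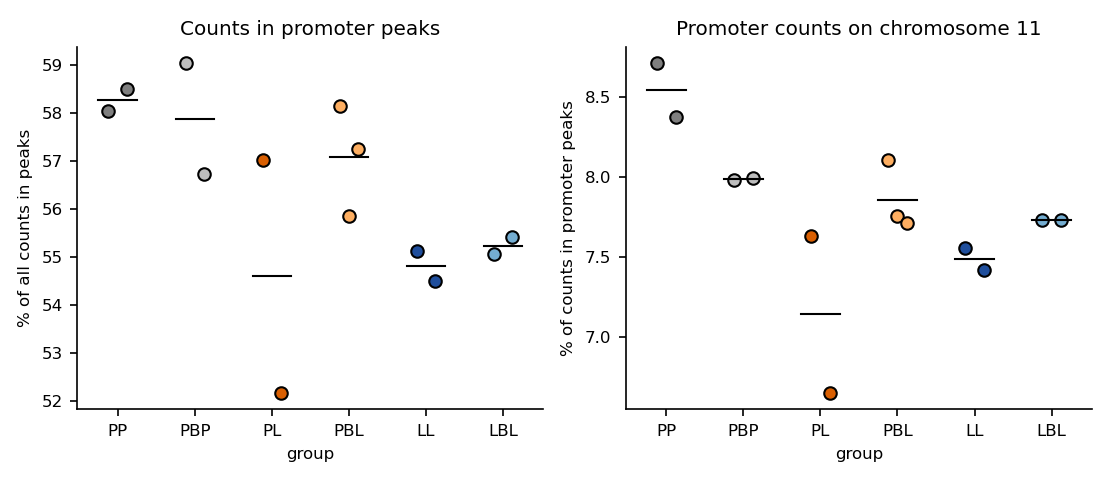
Each point is 1 library and each line the mean of its group. The left axis gives the share of a library's counts that fell in autosomal promoter peaks (%), the right axis the share of those counts that lay on chromosome 11 (%); PL 3_4 is the lowest library in both, at 52.2% and 6.65%.

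The share of counts in promoter peaks was 58.0% and 58.5% in PP, 59.0% and 56.7% in PBP, 57.0% and 52.2% in PL, 58.2%, 55.9% and 57.3% in PBL, 55.1% and 54.5% in LL, and 55.1% and 55.4% in LBL. PL 3_4 lay below every other library, and PBL overlapped the PBS groups. The 9 libraries taken after LPS averaged 55.6% ± 1.76 (SD, n = 9) and the 4 taken after PBS 58.1% ± 0.988 (SD, n = 4). The difference of -2.46 percentage points had p = 0.028 in an exact two-sided permutation test over 715 arrangements, and 0.056 after adjustment over the 2 share tests. Without PP 1_2, PP 3_4 or PBP 1_2 the unadjusted exact permutation p was 0.0591, 0.0727 and 0.0864. The test takes libraries as exchangeable, although those of 1 group shared treatment, sorter and, apart from PL, the day. Libraries from BLZ945-treated mice averaged 56.8% ± 1.47 (SD, n = 7) and those from vehicle-treated mice 55.9% ± 2.41 (SD, n = 6), a difference of 0.891 points (exact permutation p = 0.434). No PBS library was sorted on the XDP, so within that sorter the LPS difference has no value. On the Astrios the 4 PBS libraries were at 56.7% to 59.0% and the PL libraries at 57.0% and 52.2%.

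Libraries held 927840 to 2772688 counts in peaks, fewest in PP. On the first principal component of the promoter peaks, which carried 26.12% of the variance, PP lay at -29.97 and -26.6, PBP at -14.4 and -8.72, and the other libraries between -1.85 and 10.7, except PL 3_4 at 29.0. Chromosome 11 took 8.71% and 8.38% of the promoter counts in PP, 7.98% and 8.00% in PBP, 7.63% in PL 1_2, 6.65% in PL 3_4 and 7.42% to 8.11% in the other libraries, and the counts outside promoters moved the same way (6.49% in PP 1_2 and 5.02% in PL 3_4). These values are given again beside the comparisons they touch. Of the genes in the marker lists, promoter peaks were tested for 33 homeostatic microglia genes, but for 1 of 16 neuron, 2 of 19 lymphocyte, 2 of 15 neutrophil, 2 of 12 astrocyte, 4 of 14 oligodendrocyte, 5 of 16 endothelial and mural, 6 of 13 monocyte and 6 of 17 border macrophage markers.

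A first LPS injection in microglia that were never depleted (PL vs PP) raised accessibility at promoters of Map3k8, Birc3 and other signalling genes. It lowered accessibility at promoters of Mertk and Sall1. Several splicing factor promoters were lower in PL than in PP as well, but their summed level in PBP, without LPS, also lay below PP. Map3k8, the kinase that carries Toll-like receptor signals on to ERK, had the clearest change of all promoter peaks. At its inner start (chr18:4336162-4336932) the level was 21 and 20.0 CPM in PP and 108 and 119 in PL (log2 fold change 2.47, SE 0.2, adjusted p = 8.71e-20 by edgeR's quasi-likelihood test, as for all adjusted p below). At its outer start it was 50.5 and 51.9 and 98.4 and 112 (log2 fold change 1.04, SE 0.17, adjusted p = 2.01e-06), so both starts rose.

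Birc3, an inhibitor of apoptosis and NF-kB target, went from 33.7 and 47.9 CPM in PP to 79.4 and 109.7 in PL (log2 fold change 1.21, SE 0.19, adjusted p = 1.84e-06). Cd244a, an immune receptor of the SLAM family, went from 24.2 and 16 to 60.5 and 54.3 (log2 fold change 1.52, SE 0.25, adjusted p = 2.98e-06). Both promoters were printed above. Under the naming rule given below, peaks listed for a small p had no overlap between the libraries of the compared groups. Such separation is therefore no added support. Epb41l4b rose from 12.6 and 7.98 to 34.4 and 57.5 CPM (log2 fold change 2.17, SE 0.31, adjusted p = 6.54e-08), and Edem1, which marks misfolded proteins in the endoplasmic reticulum for breakdown, from 7.36 and 12 to 34.4 and 54.3 (log2 fold change 2.19, SE 0.32, adjusted p = 1.21e-07). Tcf4, an E-protein transcription factor, rose 2.79-fold, Tmem63a, an ion channel opened by stretch, 2.72-fold, and Ptgs2os2, a non-coding RNA next to the cyclooxygenase gene Ptgs2, 2.96-fold.

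Among the falls, Mertk, a receptor with which microglia take up dying cells, was at 123 and 122 CPM in PP and 65.2 and 46.9 in PL (log2 fold change -1.14, SE 0.16, adjusted p = 6.27e-08). Sall1, a transcription factor of microglial identity, was at 139.9 and 114 and 81.8 and 62.3 (log2 fold change -0.82, SE 0.15, adjusted p = 4.78e-05). The PBP libraries, which had no LPS either, were at 95.2 and 103 for Mertk and 151 and 125 for Sall1, above both PL libraries. The bromodomain gene Brd2 was at 86.2 and 76.8 CPM in PP, 39.1 and 33.5 in PL and 67.1 and 42.2 in PBP (log2 fold change -1.17, SE 0.2, adjusted p = 5.38e-06). Also called lower were the promoters of Polr2a, the largest subunit of RNA polymerase II, Cltc, the clathrin heavy chain, and the splicing factor Rbm39. The falls were 0.84, 0.77 and 0.79 on the log2 scale. Polr2a and Cltc lie on chromosome 11, where 14.4% of promoter peaks were called lower, against 3.84% elsewhere. With libraries scaled within each chromosome, the share on chromosome 11 was 3.57%. Whether the calls of Polr2a and Cltc were kept under that scaling, and their levels in PBP, are not given here. 4931408C20Rik had the smallest p of the falls, at 156 and 139.7 CPM in PP and 72.3 and 50.6 in PL, but PBP was at 68.3 and 79.2 without LPS.

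In all, 303 promoter peaks were higher and 638 lower in PL (2.3% and 4.75% of those tested). Over all 37516 tested peaks 4.77% were higher and 2.69% lower, and intronic peaks were at 6.45% and 1.18%. This split moved with the scaling. When libraries were scaled on promoter peaks alone, which moved the median log2 fold change of all promoter peaks from -0.10 to 0.00, 526 were higher and 346 lower. Without PL 3_4, whose promoter share was the lowest, 87 were higher and 60 lower, without PL 1_2 468 and 1717, without PP 1_2 75 and 163, and without PP 3_4 105 and 235. With each of the 4 libraries left out in turn, 30 of the 303 and 25 of the 638 were called every time, and these were also called under the promoter scaling. Chromosome 11, which took a smaller share of the counts of PL 3_4, held 166 of the lower calls (14.4% of its 1149 promoter peaks, against 3.84% elsewhere). With libraries scaled within each chromosome, a choice made after seeing the data, the shares were 3.57% and 4.07%, with 262 higher and 541 lower in all. Chromosome 19 had the next highest share of lower calls, 8.8% of 500 (3.2% when scaled within the chromosome), and its share of promoter counts was 2.97% in PL 3_4 and 3.23% to 3.56% in the other libraries.

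**Figure D2:**
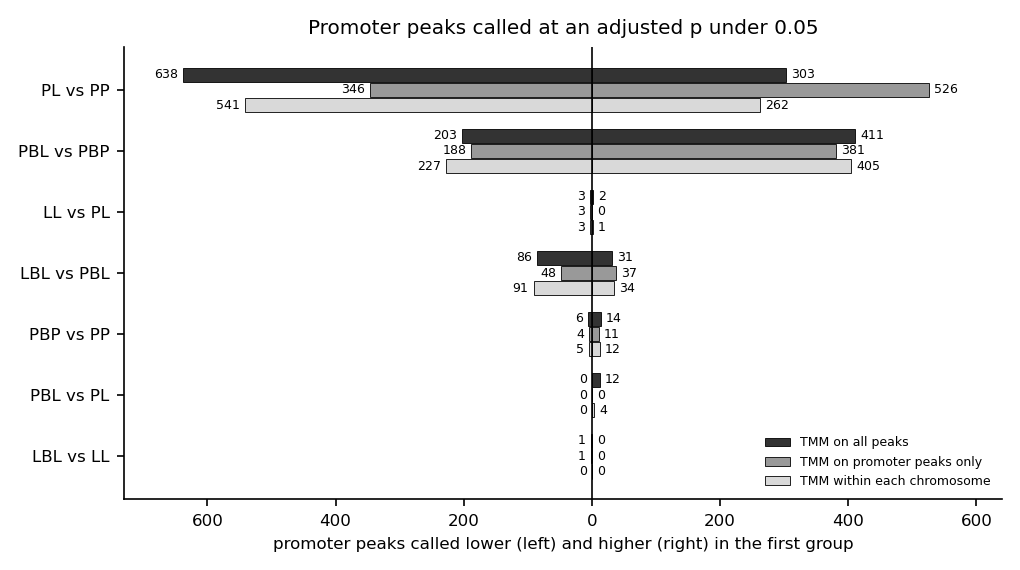
Bars give the number of promoter peaks called at an adjusted p under 0.05 in each comparison, lower in the group named first to the left and higher to the right, with libraries scaled on all peaks (black), on promoter peaks alone (grey) and within each chromosome (light grey). In PL vs PP the split of 303 higher and 638 lower turned to 526 and 346 with the promoter scaling, while in PBL vs PBP 411 and 203 became 381 and 188.

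Gene lists were read by their counts of called promoters, each gene by its promoter peak with the highest mean level. Of 29 inflammatory and NF-kB target genes, 4 rose in PL and none fell (median log2 fold change 0.11, against -0.10 for all promoter peaks), Birc3 and Map3k8 among them. Of 32 interferon-stimulated genes 5 rose and none fell (median 0.30; 8 with the promoter scaling), including the DNA sensor gene Ifi204 (2.47-fold) and Stat2, a subunit of ISGF3 (1.62-fold). Of 26 Toll-like receptor genes 3 rose, Tlr2 (1.78-fold) and the adaptor Ticam1 (1.57-fold) among them. The NF-kB subunit Rela and the adaptor Tab2 were the 2 that fell. With the promoter scaling 5 rose and 1 fell. Rela lies on chromosome 19, which had the next highest share of lower calls after chromosome 11. Negative regulators of LPS signalling went both ways, 3 higher and 3 lower of 29 (3 and 2 with the promoter scaling). The cytokine feedback inhibitor Socs3 was at 1.44-fold and the MAP kinase phosphatase Dusp1 lower by 0.66 (log2).

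Of 33 homeostatic genes 7 fell and 1, the transcription factor Mef2c, rose (median -0.16; 4 fell with the promoter scaling). Of 36 splicing factor genes 9 fell and none rose (median -0.33), but with the promoter scaling 5 fell and 2 rose. The summed level of the splicing promoters was 2936 to 3116 CPM in PP, 2590 to 2817 in PBP, and 2170 to 2748 in PL, so that PP lay above all other groups, PBP included. Of 44 oxidative phosphorylation genes 3 fell, of 48 ribosomal protein genes 2, of 30 proteasome genes 2 and of 24 proliferation genes 2. Of 20 heat shock genes 2 fell and 1 rose, and of 26 histone genes none was called. With 4.75% of all promoter peaks lower, these small counts are not read as results about the lists. Among other cell types' markers, the T cell kinase Lck fell from 46.3 and 45.9 CPM in PP to 27.3 and 22.4 in PL, with PBP at 24.4 and 22.6. The endothelial gene Vwf fell by 0.82 (log2). They were 1 of 2 lymphocyte and 1 of 5 endothelial and mural markers tested. The summed lymphocyte markers were at 56.8 to 59.9 CPM in PP and 33.2 to 46.2 in every other library, and their part in the other falls was not tested. In sorted pools, fewer cells of a type and lower accessibility per cell cannot be told apart.

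In repopulated microglia (PBL vs PBP) the same first LPS injection opened promoters of Map3k8, Vmp1, Rcan1 and inflammatory genes and closed promoters of Cx3cr1, Siglech and other homeostatic genes. The inner Map3k8 start went from 26.2 and 21.1 CPM in PBP to 101, 117 and 112 in PBL (log2 fold change 2.21, SE 0.16, adjusted p = 9.15e-24). An inner start of Vmp1, an autophagy gene (chr11:86586724-86587535), went from 29.3 and 27.1 to 84.3, 90.7 and 79.2 CPM (log2 fold change 1.57, SE 0.17, adjusted p = 2.27e-13). Rcan1, an inhibitor of calcineurin whose promoter with its CRE and AP-1 letters was printed above, went from 25 and 24.1 to 70.2, 83.7 and 66.7 CPM (log2 fold change 1.57, SE 0.18, adjusted p = 4.77e-12). At all 3 the PBL libraries lay above the PBP libraries, as the naming rule required of peaks ranked by p.

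The immediate early gene Ier3 was at 25.6 and 28.7 CPM in PBP and 68.8, 75 and 75.5 in PBL (log2 fold change 1.44, SE 0.17, adjusted p = 5.54e-11), and the semaphorin gene Sema6b at 47.6 and 51.3 and 104, 119 and 108 (log2 fold change 1.17, SE 0.14, adjusted p = 1.13e-11). Tmbim1, which encodes a lysosomal membrane protein, was at 18.3 and 13.6 and 49.9, 49 and 60.9 (log2 fold change 1.74, SE 0.21, adjusted p = 1.04e-10). Epb41l4b rose 5.14-fold, Cd244a 3.18-fold, the inner Jmjd1c start 2.84-fold and Mgrn1 2.75-fold, and Cd14, the LPS co-receptor, 1.76-fold.

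Among the falls, Eef2k, a kinase that slows translation, was at 91.5 and 110.1 CPM in PBP and 50.6, 55 and 51 in PBL (log2 fold change -0.94, SE 0.14, adjusted p = 3.28e-08). Uba7, the activating enzyme for the ubiquitin-like ISG15 and in many cells an interferon-induced gene, was at 59.8 and 52.8 and 21.1, 25.9 and 26.4 (log2 fold change -1.18, SE 0.18, adjusted p = 1.45e-07). Cx3cr1, the fractalkine receptor of microglia, was at 81.8 and 61.9 and 35.1, 40.7 and 33.4 (log2 fold change -1.0, SE 0.16, adjusted p = 7.1e-07). The neighbouring crystallin genes Crybb1 and Cryba4 fell by 1.51 and 1.47 on the log2 scale, Mertk by 0.83 and Siglech, a microglial lectin, by 1.11.

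In all 411 promoter peaks were higher and 203 lower in PBL (3.06% and 1.51%). Over all tested peaks 6.74% were higher and 3.23% lower, and of intronic peaks 9.34% and 4.4%. Promoter scaling gave 381 and 188. Leaving out PBP 1_2 lowered the count from 614 to 270, leaving out PBP 3_4 lowered it to 273, and 97 of the higher and 36 of the lower peaks were called with every one of the 5 libraries left out. PBP and PBL differ in sorter and day as well as in LPS, and these cannot be told apart.

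Of the 29 inflammatory genes 9 rose in PBL and none fell (median 0.38, against -0.01 for all promoter peaks). Tnf, the cytokine, was at 22.6 and 9.05 CPM in PBP and 42.1, 38.9 and 24.9 in PBL (log2 fold change 1.04, SE 0.24, adjusted p = 0.000856), and Bcl3, a nuclear cofactor of NF-kB, rose 2.57-fold. Of 32 interferon-stimulated genes 6 rose and none fell (median 0.13), with the chemokine gene Cxcl10 at 2.08-fold and Ifi207 at 2.05-fold. Of 27 immediate early genes 4 rose and 1 fell. Of 17 glucocorticoid targets 4 rose, among them the metallothioneins Mt1 (2.07-fold) and Mt2, and 1, the kinase Sgk1, fell. Of 22 disease-associated microglia genes 3 rose, with Cst7, which encodes cystatin F, at 3.00-fold and the galectin Lgals3 at 2.81-fold. Socs3 rose 1.50-fold.

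Of the 33 homeostatic genes 9 fell and 1, the inflammation-induced receptor Gpr84, rose (median -0.28). The summed level of the 33 promoters was 2011 to 2091 CPM in PBP, 1905 to 1912 in PP, 1599 to 1709 in PL, 1648 to 1696 in PBL, 1839 to 1840 in LL and 1872 to 1916 in LBL. The groups with their first LPS injection were thus the lowest, without overlap. The 29 inflammatory promoters summed to 1188 to 1205 CPM in PP, 1085 to 1226 in PBP, 1351 to 1371 in PL, 1503 to 1560 in PBL, 1253 to 1287 in LL and 1258 to 1269 in LBL, with PL and PBL the highest. No splicing factor or proteasome promoter was called in PBL vs PBP, and 1 oxidative phosphorylation promoter was (Ndufs3, higher). Trem1, a receptor also found on neutrophils, rose from 2.44 and 1.51 CPM to 9.13, 12.9 and 11.7. Of 6 tested border macrophage markers 1, Apobec3, was called higher (median log2 fold change -0.14, against -0.01 for all promoter peaks). Of 6 tested monocyte markers 1, Lgals3, was called higher (median 0.20). The summed neutrophil markers, Trem1 included, were at 34.7 to 41.5 CPM in PBP and 45.0 to 51.8 in PBL, and their part in the other rises was not tested.

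**Figure D3:**
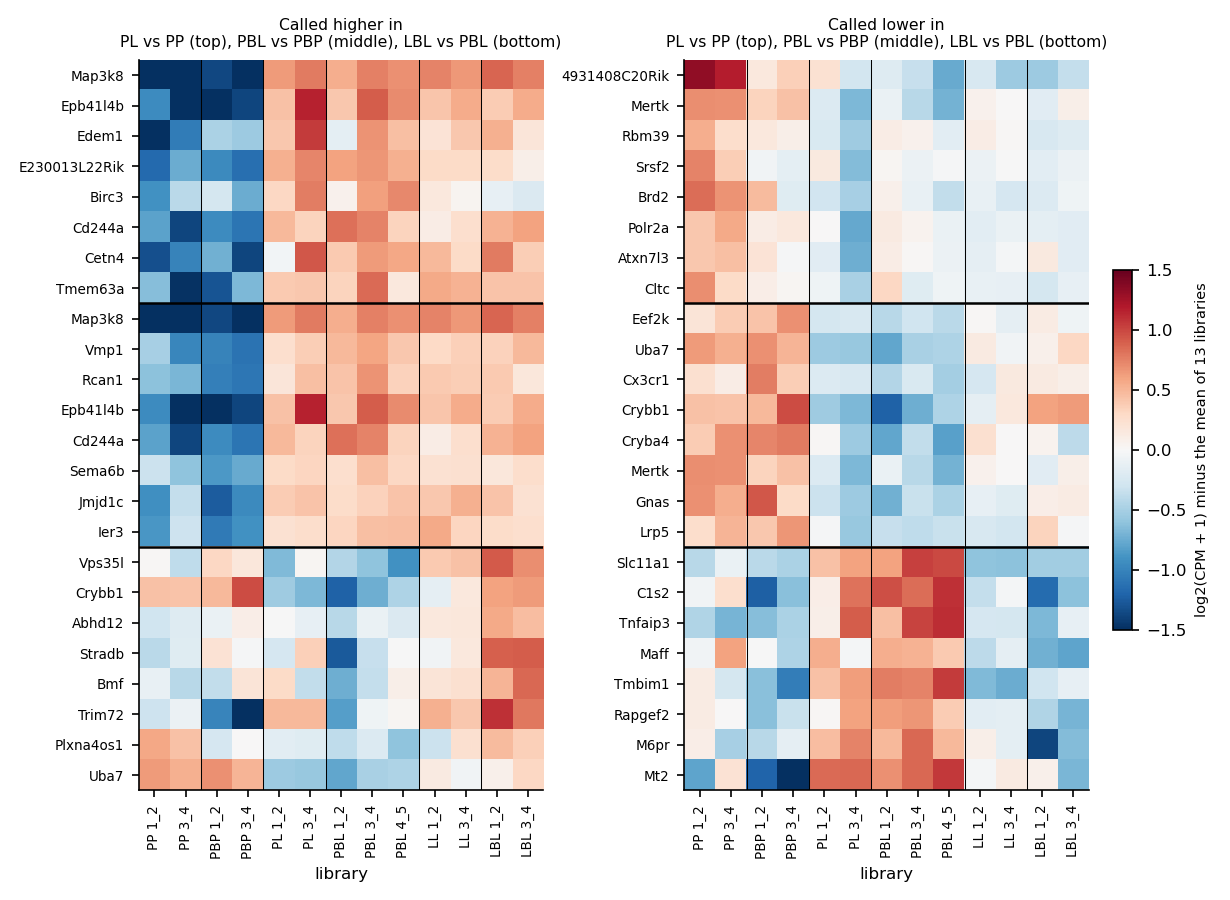
Rows are 8 promoter peaks per direction of 3 comparisons, taken from those of smallest p, and columns are the 13 libraries. Colour gives log2(CPM + 1) minus the mean over the 13 libraries, so red is above and blue below a peak's own mean; in the lowest block on the right, Slc11a1 and Tmbim1 are red in PL and PBL and blue in LL and LBL.

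PL vs PP and PBL vs PBP have no library in common, so the sign of each can be read in the other. Of the 303 promoters higher in PL vs PP, 251 (82.8%) were also above zero in PBL vs PBP and 118 were called there. Of the 638 lower ones 447 (70.1%) had the same sign, 45 were called lower and 2 were called higher. Over all promoter peaks the median log2 fold change in PBL vs PBP was -0.01, and 3.06% were called higher and 1.51% lower. In the other direction, 345 of 411 (83.9%) and 176 of 203 (86.7%) had the same sign, and the shared calls were 28.7% of the higher and 22.2% of the lower ones. Called in both comparisons were 165 promoters, in PL vs PP alone 776, in PBL vs PBP alone 449 and in neither 12043.

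**Figure D4:**
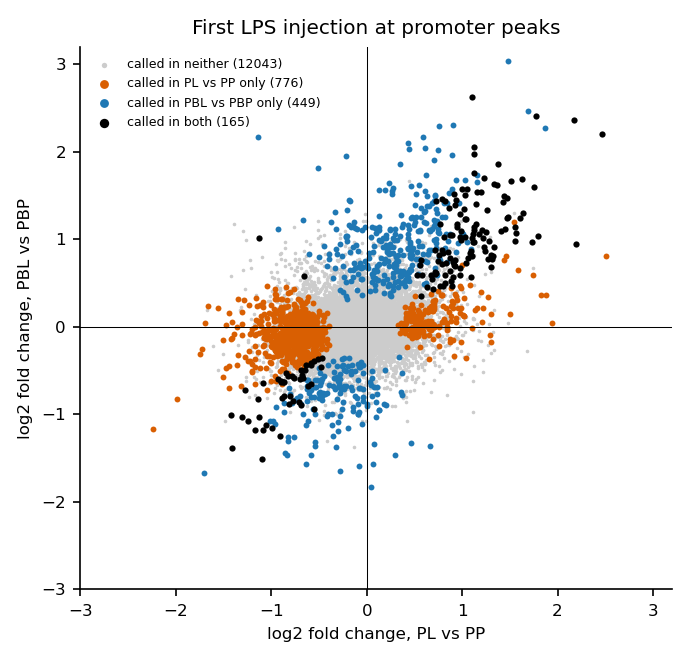
Each point is 1 of the 13433 tested promoter peaks, with its log2 fold change in PL vs PP on the horizontal axis and in PBL vs PBP on the vertical axis, coloured by the comparison in which it was called. The 165 called in both (black) lie mostly along the diagonal, while many of the 776 called in PL vs PP alone lie near zero on the vertical axis.

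A direct test of the difference between these responses called 14 promoter peaks, of which 12 had a higher and 2 a lower value after repopulation. These are 0.104% of the tested promoter peaks, against 0.0746% of all tested peaks. With promoter scaling 4 were higher and 5 lower. The count was 0 without PL 3_4, PP 1_2, PBP 3_4 or PBL 1_2, 7 without PP 3_4 and 581 without PL 1_2. Ehd1, which encodes a protein of endocytic recycling, was at 48.4 and 54.9 CPM in PP and 60.5 and 39.9 in PL. It was at 36.6 and 31.7 in PBP and 73, 74 and 74.8 in PBL. The PBP libraries thus lay below the PP libraries without LPS, and the PL libraries lay on either side of PP.

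Calls were also counted by where a promoter lies in its gene. In PBL vs PBP 5.69% of inner and 2.16% of outer promoters were higher, and 2.35% and 1.21% lower. In PL vs PP 3.15% of inner and 1.92% of outer promoters were higher, while 4.11% and 4.99% were lower. Peaks that overlapped a start were higher in 2.39% in PBL vs PBP, those 1 to 500 bp away in 5.38% and those more than 500 bp away in 6.02%. Promoters with a single gene within 1 kb were higher in 3.57% and those with 2 or more genes in 2.07%. In PL vs PP these shares were 2.14%, 2.19% and 3.33% by distance and 2.58% and 1.63% by number of genes. Ranked by mean level in 4 equal classes, peaks of the lowest class were higher in 4.14% in PBL vs PBP and those of the highest in 1.73%. The order was the opposite in PL vs PP, with 0.923% of the lowest and 3.96% of the highest class higher (1.31% and 8.34% with the promoter scaling). These shares are descriptions and the differences between classes were not tested.

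Where an inner promoter rose, the outer promoter of the same gene was called in about 1 gene of 10. Genes were picked here by a called inner peak, so their inner median is large by that choice. The gap between the medians therefore cannot show which start responds more. The reverse pick, by a called outer peak, is not given. In PBL vs PBP, 184 inner peaks of 168 genes were higher, and 98 of these genes also had a tested outer peak. In 9 of the 98 (9.18%) the outer promoter was called higher too, against 2.16% of all outer promoters, and the median log2 fold changes were 1.03 inside and 0.00 outside. In PL vs PP it was 5 of 51 (9.8%, against 1.92%), with medians of 1.00 and 0.05. Where an inner promoter fell, the outer one was called lower in 2 of 35 genes in PBL vs PBP (5.71%, against 1.21% of all outer promoters; medians -0.88 and -0.08) and in 5 of 33 in PL vs PP (15.2%, against 4.99%; medians -0.88 and -0.28).

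**Figure D5:**
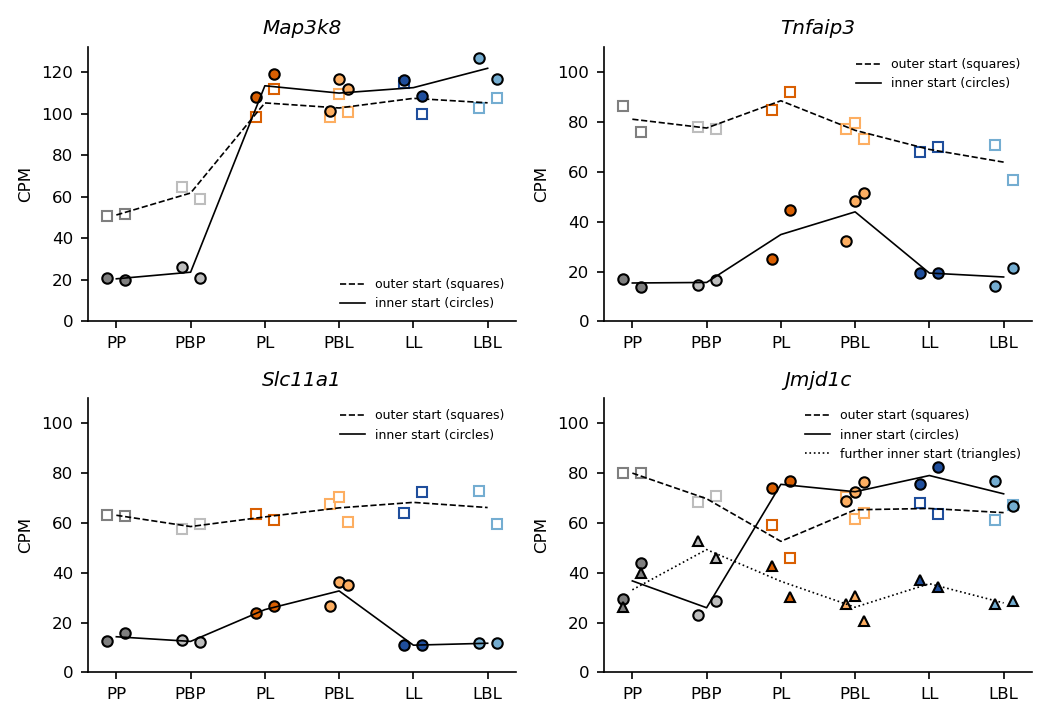
CPM at the outer start (squares, broken line) and at inner starts (circles and triangles) of 4 genes in every library. Lines join the group means; they mark no order in time. The inner start of Tnfaip3 and of Slc11a1 is higher in every PL and PBL library than in any other library, while the outer start was called in neither first LPS comparison.

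Tnfaip3, which encodes the NF-kB feedback inhibitor A20, had its outer promoter at 78.1 and 76.9 CPM in PBP and 77.3, 79.6 and 73 in PBL (log2 fold change -0.02, SE 0.13, adjusted p = 0.954). Its inner promoter went from 14.7 and 16.6 to 32.3, 48.1 and 51.3 (log2 fold change 1.54, SE 0.23, adjusted p = 9.16e-08). Slc11a1, the metal transporter NRAMP1 of phagosomes, was alike, with 57.4 and 59.6 and 67.4, 70.3 and 60.1 CPM outside and 12.8 and 12.1 and 26.7, 36.1 and 35.2 inside.

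Of 2245 genes with 2 or more tested promoter peaks, 303 had at least 1 called in PBL vs PBP, and in 20 of them all were. In PL vs PP it was 321 and 13. Some genes had calls in both directions, 3 in PL vs PP (Mgrn1, Ndel1 and Jmjd1c) and 8 in PBL vs PBP (Jarid2, Abcd2, Tbc1d1, Ogfrl1, Nars, Jmjd1c, Hps4 and Pde4d). These genes are named because of that pattern, after their values were seen. At Jmjd1c, a histone demethylase, the CpG-rich inner promoter printed above (chr10:67126286-67127164) went from 23.2 and 28.7 CPM in PBP to 68.8, 72.2 and 76.3 in PBL. A further inner promoter (chr10:67185530-67186131) went from 52.5 and 46 to 27.4, 30.5 and 20.5 (log2 fold change -0.95, SE 0.19, adjusted p = 9.01e-05), while the outer one was at 68.3 and 70.9 and 70.2, 61.5 and 63.8. At Abcd2, a peroxisomal transporter of fatty acids, the outer promoter fell by 0.63 and an inner one rose by 1.08 on the log2 scale (adjusted p = 0.0134 and 0.00176 by edgeR).

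Promoters and distal peaks of the same gene were compared for 5156 genes that had both, with distal meaning any other peak assigned to the gene within 50 kb. In PBL vs PBP, 266 of these genes had a higher promoter, and in 116 of them (43.6%, against 18.5% of all 5156) another peak rose as well. Of 952 genes with another peak higher, the promoter was higher in 116 (12.2%), against 5.16% of all 5156. For falls it was 33 of 141 (23.4%, against 9.37%) and 33 of 483 (6.83%, against 2.73%). In PL vs PP 64 of 182 genes with a higher promoter (35.2%, against 13.1%) had another higher peak, and 22 of 332 with a lower promoter (6.63%, against 3.47%) had another lower peak. Of the genes with another peak called, the promoter was higher in 9.47% (against 3.53%) and lower in 12.3% (against 6.44%).

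Primary transcripts of microRNAs start at promoters too. Of 158 tested promoter peaks that ended within 5 kb upstream of a RefSeq hairpin, 3 were higher and none lower in PBL vs PBP, and 3 were higher and 16 lower in PL vs PP. These are 1.9% higher in each comparison, against 3.06% and 2.3% of all promoter peaks, and 10.1% lower in PL vs PP, against 4.75%. Of the 16, 8 lay on chromosome 11, whose share of counts was lowest in PL 3_4. Higher in both were the inner Vmp1 start, 2566 bp before the hairpin of miR-21a, and an Mfsd13a promoter (chr19:46340861-46341279), 1483 bp before that of miR-146b (log2 0.91 and adjusted p = 0.0327 in PL vs PP, log2 1.52 and adjusted p = 2.36e-06 in PBL vs PBP, by edgeR). A peak 573 bp before the hairpin of miR-146a (Mir146, chr11:43375034-43375294) was lower in PL vs PP (log2 -1.47, adjusted p = 0.0497 by edgeR) and was not called in PBL vs PBP (log2 -0.47, adjusted p = 0.494). All 3 microRNAs are known as LPS-induced regulators in macrophages, and the mature strands of miR-21a and miR-146b are shown with the seed (bases 2 to 8) in capitals. The files hold no measurement of the microRNAs themselves.
mmu-miR-21a-5p: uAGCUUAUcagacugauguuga
mmu-miR-146b-5p: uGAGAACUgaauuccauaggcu

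A second LPS injection without depletion (LL vs PL) gave few calls. Tmbim1 was at 39.7 and 45.3 CPM in PL and 18 and 16.9 in LL (log2 fold change -1.29, SE 0.21, adjusted p = 0.000531). Slc11a1, at its inner start, was at 23.7 and 26.6 and 11 and 10.9 (log2 fold change -1.2, SE 0.26, adjusted p = 0.0243), and Il4i1, an amino acid oxidase of activated macrophages, at 19 and 21.3 and 6.49 and 8.85 (log2 fold change -1.37, SE 0.29, adjusted p = 0.0227). At all 3 the LL libraries lay below the PL libraries, as the naming rule required of peaks ranked by p. They also lay below both PP libraries. Aatk, a kinase, rose 1.68-fold and Sh3bp1 2.85-fold. These 2 higher and 3 lower calls are 0.0149% and 0.0223% of the tested promoters, against 0.0133% and 0.0506% of all tested peaks. Promoter scaling kept 0 higher and 3 lower. None of the 5 was called with every library left out in turn: the count was 0 without LL 3_4, 1 without PL 3_4, 2 without LL 1_2 and 100 without PL 1_2. PL and LL differ in sorter and day.

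In the repopulated arm (LBL vs PBL) the same 3 promoters fell. Slc11a1 inside was at 26.7, 36.1 and 35.2 CPM in PBL and 11.7 and 11.7 in LBL (log2 fold change -1.51, SE 0.24, adjusted p = 1.12e-05), Tmbim1 at 49.9, 49 and 60.9 and 23.4 and 26.4 (log2 fold change -1.1, SE 0.18, adjusted p = 3.66e-05), and Il4i1 at 18.3, 21.7 and 24.6 and 10.4 and 9.65 (log2 fold change -1.14, SE 0.26, adjusted p = 0.00572). The inner Tnfaip3 promoter fell from 32.3, 48.1 and 51.3 to 14.3 and 21.3 CPM (log2 fold change -1.32, SE 0.21, adjusted p = 1.7e-05), while in LL it was at 19.5 and 19.3 and in PL at 24.9 and 44.7. Maff, a small MAF transcription factor, was at 45, 44.4 and 40.3 in PBL and 18.2 and 17.3 in LBL (log2 fold change -1.28, SE 0.21, adjusted p = 3.08e-05). At each of these promoters all LBL libraries lay below all PBL libraries, as the naming rule required of peaks ranked by p.

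Of the 29 inflammatory genes 7 fell in LBL and none rose (median -0.32, against -0.06 for all promoter peaks), and 4 fell with the promoter scaling. Over all promoter peaks, 0.231% were called higher and 0.64% lower in LBL. Nfkb1, which encodes the p50 subunit, was at 55.5, 63.8 and 68.9 CPM in PBL and 32.5 and 37.6 in LBL (log2 fold change -0.85, SE 0.17, adjusted p = 0.000605). Birc3 was at 66.7, 98.1 and 106 and 58.5 and 54.8 (log2 fold change -0.72, SE 0.14, adjusted p = 0.000795), and Tnf and Ehd1 fell by 0.85 and 0.77 on the log2 scale. In LL vs PL none of the 29 was called (edgeR; median -0.14, against 0.02). Of 27 immediate early genes 3 fell in LBL, with Egr1 from 153, 148 and 156 to 103 and 106 CPM, and Cd14, Zbp1 and Cst7 fell by 0.6, 0.75 and 0.76 (log2).

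Map3k8, Vmp1, Ier3, Rcan1 and Cd244a, whose promoters rose after the first LPS injection in both arms, were not called in LL vs PL or in LBL vs PBL. The inner Map3k8 start was at 116 and 109 CPM in LL and 127 and 117 in LBL, 1.01-fold and 1.1-fold from PL and PBL in the fit. Vmp1, Ier3, Rcan1 and Cd244a had log2 fold changes of -0.07, -0.16, -0.21 and -0.05 in LBL vs PBL (SE 0.13 to 0.14). In LL vs PL the log2 fold change of Vmp1 was 0.02, and those of the other genes in the preceding sentence are not given. Only 5 of 13433 promoters were called in LL vs PL, so a missing call there says little about a kept level.

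The rises in LBL were led by Vps35l, a subunit of the retriever complex of endosomes, at 10.5, 9.25 and 7.33 CPM in PBL and 28.6 and 24.4 in LBL (log2 fold change 1.58, SE 0.25, adjusted p = 1.43e-05). Crybb1 was at 7.02, 10.2 and 12.5 and 27.3 and 27.9 (log2 fold change 1.4, SE 0.24, adjusted p = 7.53e-05). Of the 33 homeostatic genes 2, among them the lipid receptor Trem2, rose in LBL and none fell (median 0.16); with promoter scaling 3 rose. Uba7 rose 1.71-fold and Klhl6 1.80-fold.

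The 31 higher and 86 lower promoters made up 0.231% and 0.64% of those tested, against 0.973% and 0.928% of all tested peaks. Promoter scaling gave 37 higher and 48 lower. The count of 117 was 21 without LBL 1_2, 20 without LBL 3_4, 54 without PBL 4_5 and 74 without PBL 3_4, and 2 higher and 5 lower promoters were called with every library left out. Inner promoters were called higher in 0.773% and lower in 0.773%, outer ones in 0.0599% and 0.599%. Since LL vs PL shares no library with LBL vs PBL, signs can be compared: 25 of the 31 higher (80.6%) and 65 of the 86 lower promoters (75.6%) had the same sign there. The median log2 fold change of all promoter peaks in LL vs PL was 0.02. A test of the difference between these responses called no promoter by edgeR (0.0% of all tested peaks), DESeq2 or limma, with 786 at an unadjusted p under 0.05, and 42 were called without PL 1_2. LBL vs PBL stayed within 1 sorter, but each group had its own day.

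Repopulated and original microglia at rest (PBP vs PP) differed at 14 higher and 6 lower promoters. These are 0.104% and 0.0447% of the tested promoters, against 0.064% and 0.096% of all tested peaks. Gsk3b, a kinase of glycogen and Wnt signalling, was at 139.9 and 124 CPM in PP and 203 and 202 in PBP (log2 fold change 0.62, SE 0.12, adjusted p = 0.00125), and Ppp2r1a, the scaffold of protein phosphatase 2A, at 104 and 121 and 164 and 193 (log2 fold change 0.66, SE 0.13, adjusted p = 0.00154). Bcl10, an adaptor of NF-kB signalling, rose 1.50-fold. Among the falls were 4931408C20Rik (log2 fold change -1.01, SE 0.16, adjusted p = 7.21e-06), the splicing factor Srsf2, at 234 and 181 in PP and 134 and 125 in PBP (log2 fold change -0.67, SE 0.13, adjusted p = 0.00212), and the mitochondrial carrier Slc25a10. In the LPS groups Gsk3b lay between 173 and 209.8 CPM, near PBP. Of the 6 lower promoters 4 lay on chromosome 11, which took more of the counts in PP. Leaving out a PP library took the count of 20 to 2 (PP 1_2) or 7 (PP 3_4), leaving out a PBP library took it to 5 (PBP 1_2) or 3 (PBP 3_4), and 1, 4931408C20Rik, was called with every library left out. PP and PBP were isolated on different days.

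After a first LPS injection (PBL vs PL) 12 promoters were higher (0.0893% of those tested) and none lower in the repopulated arm. Over all tested peaks 0.0613% were higher and 0.0213% lower. Sc5d, an enzyme of cholesterol synthesis, was at 21.3 and 17 CPM in PL and at 37.9, 36.1 and 35.6 in PBL (log2 fold change 0.93, SE 0.21, adjusted p = 0.0375). PP was at 28.4 and 33.9 CPM. DESeq2 and limma called none, and 1559 promoters had an unadjusted p under 0.05. No promoter was called with the promoter scaling, 4 were with chromosome scaling, 1 without PBL 1_2, 7 without PBL 3_4, 0 without PBL 4_5, 2 without PL 3_4 and 538 without PL 1_2. Sorter and day differ between the groups.

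After the second injection (LBL vs LL) 1 promoter was lower (0.00744% of those tested) and none higher, against 0.0267% and 0.024% of all tested peaks. It was Egr1, an immediate early transcription factor, at 157 and 142 CPM in LL and 103 and 106 in LBL (log2 fold change -0.52, SE 0.11, adjusted p = 0.0286). DESeq2 and limma called none, the count was 0 with any library left out, and 854 promoters had an unadjusted p under 0.05.

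Across the 6 groups together, 1493 promoters (11.1%) differed, against 16.6% of all tested peaks and 20.3% of intronic ones. The 10 with the smallest p were Map3k8 inside, 4931408C20Rik, Vmp1, Epb41l4b, Tmbim1, Cd244a, Jmjd1c inside, Tmem63a, Rcan1 and E230013L22Rik, a non-coding RNA. Of these 10, 8 were low in the 4 PBS libraries and high in all 9 LPS libraries. The exceptions were 4931408C20Rik, which was high in PP alone, and Tmbim1, which was high in PL and PBL alone. The promoters of Actb and Gapdh, housekeeping genes, and of the microglial genes P2ry12, Tmem119 and Csf1r, of the NF-kB inhibitor Nfkbia and of Irf7 were called in none of the 7 comparisons of groups. Il1b had no tested promoter peak. The median biological coefficient of variation from edgeR was read for peaks at a mean of 20 to 40 CPM. It was 0.0659 for promoters, 0.0658 for intronic and 0.0656 for intergenic peaks. These estimates are drawn toward a trend with mean level that all peaks share. Near-equal values at the same level therefore cannot show whether libraries of a group varied alike in promoter and other peaks.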

How the data were processed

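The authors deposited 1 table for the 13 libraries of sorted microglia, with expected or estimated counts per peak in steps of 0.5 and no normalization. Per the file headers, widths and start-site distances are other deposited columns, in bp. The submitters' processing notes list, with no order, MACS2 2.1.1, ChIPseeker 1.38, Bowtie2 2.2.6, HOMER 4.9.1, cutadapt 1.9.1, deepTools 3.3.0, SAMtools 1.7, bedtools 2.26 and Picard 1.126, and the builds mm10 and GRCm38. The counting tool and any shift of read ends for the transposase are not stated there. The peak set is common to all libraries, so a level is compared across libraries at fixed coordinates.

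Counts were rounded to whole numbers and fitted in R 4.3.3 with edgeR 4.0.16 (filterByExpr with a minimum count of 10, TMM scaling on all peaks, robust quasi-likelihood fit with 6 group means). All 37516 tested peaks of every annotation entered the fit, and p-values were adjusted by Benjamini-Hochberg over them. Promoter peaks were then counted, and a call is an adjusted p under 0.05, two-sided. Levels are CPM over counts in peaks, and depth limits the precision of peaks with few counts. An inner start lies over 1 kb inside the RefSeq gene (GRCm38.p6) from its 5′ end. The script was tested on simulated counts. Shares of counts were compared by exact permutation tests over libraries. Whether pools with the same number in different groups are paired was checked, and same-numbered pools did not deviate together (median correlation 0.007, range -0.035 to 0.188). Alternatives were DESeq2 1.42.0, limma-trend 3.58.1, other scalings and filters, fits of the compared groups alone, a replicate block and leaving out each library. Scaling within each chromosome, and leaving out PL 3_4 together with promoter scaling, were added after seeing the data.

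Named are, per comparison and direction, the 10 called promoter peaks of smallest p whose libraries did not overlap, up to 2 members of each gene list per direction, and a fixed set of genes, from which the text takes a part. Some genes that meet the rule are not reported here. Genes named for calls in both directions, for an inner and outer start, or for a microRNA were chosen after their values were seen. The promoter peaks and the lists were chosen with earlier results of these data known.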

Additional observations from a re-analysis of the deposited data

Results flagged for a closer look

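The first LPS injection gave different changes in the 2 arms at 14 promoter peaks, by a direct test of PBL vs PBP minus PL vs PP (edgeR, adjusted over all tested peaks). With libraries scaled within each chromosome 7 were called. The splicing genes Srsf2 and Srrm1 differed by 0.85 and 1.01 on the log2 scale. At Srsf2 the levels were 234 and 181 CPM in PP, 134 and 125 in PBP, 154 and 88.4 in PL, and 142, 131 and 138 in PBL, so the PBS groups stood apart. Inpp5k, Cep112 and Myo1d, all on chromosome 11 like Srsf2, differed by 1.08, 1.18 and 2.14. None of these 4 was called when libraries were scaled within chromosomes. Ppp2r1a differed by -0.71 and the B cell scaffold gene Bank1 by -1.10. At both, the level in PP was below that in PBP. None of the 14 was called with every library left out in turn, and the cause was not tested.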

How the results depend on the processing

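Counts of called promoter peaks by alternative follow, with those of the report in brackets. DESeq2 called 263 in PL vs PP (941), 196 in PBL vs PBP (614), 7 in LBL vs PBL (117), 1 in PBP vs PP (20), 272 for any difference among the 6 groups (1493), and 0 in LL vs PL (5), PBL vs PL (12), LBL vs LL (1) and the difference in first LPS response (14). limma-trend called 1449 in PL vs PP, 52 in LBL vs PBL, 1 in LL vs PL, 148 in PBP vs PP, 24 for that difference, and 0 in PBL vs PL and LBL vs LL. Fitting only the groups compared gave 460 in PL vs PP, 1 in LL vs PL, 58 in PBP vs PP, 0 in PBL vs PL, 21 in LBL vs LL and 6 for the difference. Promoter scaling gave 3 in LL vs PL, 0 in PBL vs PL and 9 for the difference, and scaling within chromosomes 4 in PBL vs PL, 0 in LBL vs LL and 7 for the difference. Leaving out PL 3_4 together with promoter scaling gave 166 in PL vs PP, 0 in LL vs PL, 203 in LBL vs PBL, 81 in PBP vs PP, 0 in PBL vs PL, 10 in LBL vs LL and 0 for the difference. The last 2 settings were chosen after seeing the data.

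The replicate block, for numbers that do not pair the pools, gave 11 in LL vs PL, 77 in LBL vs PBL, 45 in PBP vs PP, 4 in LBL vs LL and 57 for the difference.

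With each library left out in turn, counts ranged from 147 to 2185 in PL vs PP, 270 to 573 in PBL vs PBP, 0 to 100 in LL vs PL, 20 to 106 in LBL vs PBL, 2 to 7 in PBP vs PP, 0 to 538 in PBL vs PL, 0 to 0 in LBL vs LL, 0 to 581 for the difference in first and 0 to 42 for that in second LPS response, and 950 to 2869 among the 6 groups. The LPS difference in promoter share ranged from -2.91 to -2.03 points and the BLZ945 difference from 0.147 to 1.41. Where 1 library remained in a group, it was assumed to vary like the other groups. Of 230 called results for named promoters, 76 kept their call in every setting run, 154 lost it in some, and none changed direction. The cause of these changes was not tested. Depth was lowest in PP.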

Other observations

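Replication-dependent histone genes were described as well. Of 26 tested promoters 3 were lower in PBL than in PBP and none higher (edgeR; 1.51% of all promoter peaks and 3.23% of all tested peaks were lower; median log2 fold change -0.37, against -0.01 for all promoter peaks), and none was called in PL vs PP or LBL vs PBL. H2bc6, which encodes an H2B histone, was at 102 and 122 CPM in PBP, 71.6, 76.8 and 60.1 in PBL, 73.6 and 77.8 in PP, and 78.2 and 81 in PL. H3c4 was at 15.9 and 17.4 CPM in PBP and 11.2, 7.40 and 8.07 in PBL. The summed level of the 26 promoters was 992 to 1012 CPM in PBP and 788 to 913 in the other libraries, so PBP was the highest group.

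An upstream promoter peak of the metallothionein gene Mt2 was at 8.41 and 17.96 CPM in PP, 6.10 and 3.02 in PBP, 28.5 and 28.8 in PL, 25.3, 28.7 and 33 in PBL, 15 and 16.9 in LL, and 16.2 and 9.14 in LBL. Metallothioneins bind zinc and are induced by metals and glucocorticoids. The fall from PBL to LBL was called (log2 fold change -1.26, SE 0.24, adjusted p = 0.00059 by edgeR), and that from PL to LL was not (log2 fold change -0.83, SE 0.24, adjusted p = 0.17).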
